A study of Saccharomyces cerevisiae with 3 samples.

Results

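The strain ratio on pyruvate is the log2 ratio of the 2 channels of a single array, on which RNA of budding yeast lacking GCR1 and of its wild type was hybridised together just before glucose was added. Its members are all genes with a platform gene symbol, each taken as the mean over its probes. They numbered 5596 of the 5598 genes valued anywhere in the series. Both strains were grown in yeast extract and peptone medium with 3% pyruvate to early or mid log phase, and 2 further arrays compared them 20 and 60 min after glucose. The strain background, ploidy, mating type, the GCR1 allele and the marker used to make it are not given in the labels. There was 1 array at 0 min, with no dye-swapped partner, so no value here has a replicate check, no test between the strains was possible, and a dye bias of a probe cannot be told apart from a strain difference.

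Gcr1 is a DNA-binding activator that works with Gcr2 and Rap1 at the promoters of glycolytic and ribosomal protein genes. Budding yeast growing on pyruvate imports the acid, oxidises it in mitochondria and makes sugar phosphates from it by gluconeogenesis, which runs the reversible glycolytic enzymes backwards. Such cells use respiration and derepressed genes for acetate, fatty acids and other poor carbon sources. The remainder of the transcriptome, outside the glycolytic enzymes themselves, is the subject here.

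The 2 probes for GCR1 (YPL075W) read 0.96 and 0.98, so the gene stood at 0.97, just short of 2-fold on the positive side. Its nearest measured neighbours were GPI2 at -0.74 and YTA6 at 0.38. Its partners GCR2 and RAP1 stood at 0.35 and 0.02. The labels do not state which strain is the numerator. The titles and the design name the mutant first, which makes mutant over wild type likely, but a positive GCR1 value goes against it unless the probes lie outside the deleted part. The glycolysis list, whose promoters Gcr1 activates, had a median of -3.43 with all 13 genes below 0. Its side was thus opposite to that of GCR1. Read as mutant over wild type, these negative values would mean lower expression without the activator. Values are therefore called positive or negative, with no strain named as higher.

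Most genes were close to equal between the strains. The median gene stood at 0.07, with quartiles of -0.15 and 0.27, while 95% of genes lay between -0.94 and 0.76. At least 2-fold, a log2 value of 1.0 or more, were 61 genes on the positive side (1.09% of genes) and 126 on the negative side (2.25%). At 1.5-fold, a log2 value of 0.58, the shares were 5.34% and 5.29%. Where a gene had 2 probes, their values differed by a median of 0.11, and 95% of such pairs differed by less than 0.41. That gap covers probes on the same array only and leaves out variation between cultures, labelling reactions and arrays.

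The sides differed in signal. Many probes carried values that are ratios of small whole numbers displaced by -0.33, the most frequent value of the array, which is where a 1:1 ratio of such small numbers lies. Of probes with a gene symbol, 9.21% matched ratios of whole numbers up to 8, and 306 genes had no probe outside this pattern. These low-signal genes had a median of -0.54, against 0.09 for the others. They made up 97 of the 126 negative genes and 0 of the 61 positive genes. Without them 29 negative genes were left (0.548% of the genes then counted), of which 10 were glycolytic enzymes and 19 were not. Ratios of somewhat larger whole numbers escape the rule, so some of the 19 may also have little signal.

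**Figure D1:**
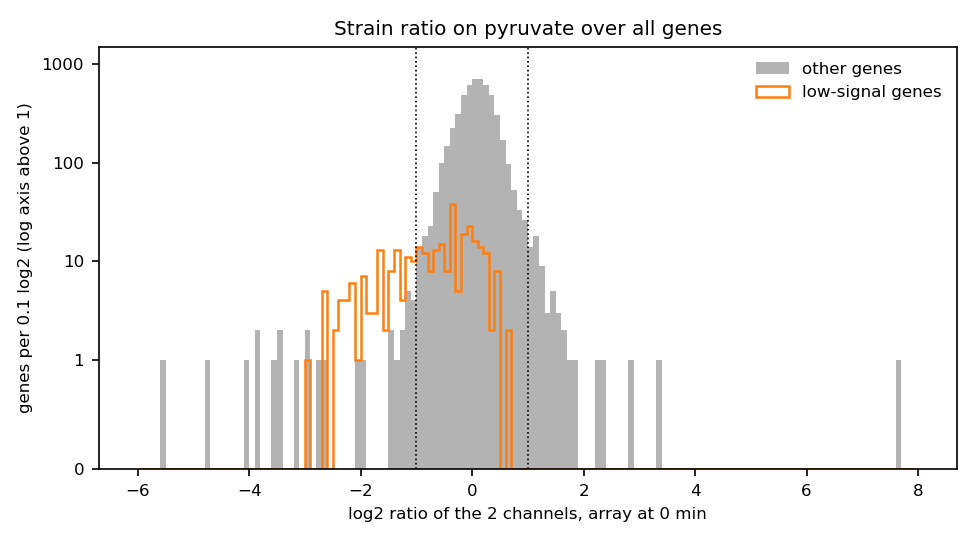
Number of genes per 0.1 log2 of the strain ratio at 0 min (log axis above 1), with dotted lines at 2-fold. Grey bars are genes outside the low-signal rule and the orange outline is the 306 low-signal genes. The low-signal genes fill most of the range between -1 and -2.7, and the single bar at 7.66 is GCN4.

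On the positive side the array was led by genes of separate functions, of which the first stood alone. GCN4, the transcriptional activator of amino acid synthesis genes, read 7.59 and 7.73 on its 2 probes, a mean of 7.66 or 202-fold. IMD2, an inosine monophosphate dehydrogenase of guanine nucleotide synthesis, had 3.32 on 1 probe (9.96-fold). URA3, the orotidine phosphate decarboxylase of uracil synthesis that is also a common laboratory marker, read 2.80 and 2.85. These high values belonged to single genes and not to stretches of chromosome. The nearest measured neighbours of GCN4 were GLC3 at 0.66 and MIT1 at -0.34, those of IMD2 were PHO12 at 0.20 and YHR218W at -0.12, and those of URA3 were GEA2 at 0.38 and TIM9 at -0.53.

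Among the next genes were ADH5, a minor alcohol dehydrogenase, at 2.31, and TPO2, a plasma membrane exporter of polyamines, at 2.26. ADY2, an acetate and ammonium transporter, had 1.83, SPG4, a gene of stationary phase, 1.70 and PDR12, an ABC transporter that exports weak organic acids, 1.66. DLD3, which turns over 2-hydroxy acids such as D-lactate, had 1.52. The calmodulin-dependent kinase gene CMK2 stood at 1.501, PCA1, a metal-pumping ATPase, at 1.49, and the glucokinase gene GLK1 at 1.44. Of the 61 positive genes 37 had more than 1 probe, and in 34 of these every probe was past 2-fold on its own. Their largest gap between probes was 0.42. The genes nearest to the threshold were PHM7 at 1.01 and HXT2 at 1.02 inside it, and BOP2 at 0.995 and ACS1 at 0.993 outside it.

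**Figure D2:**
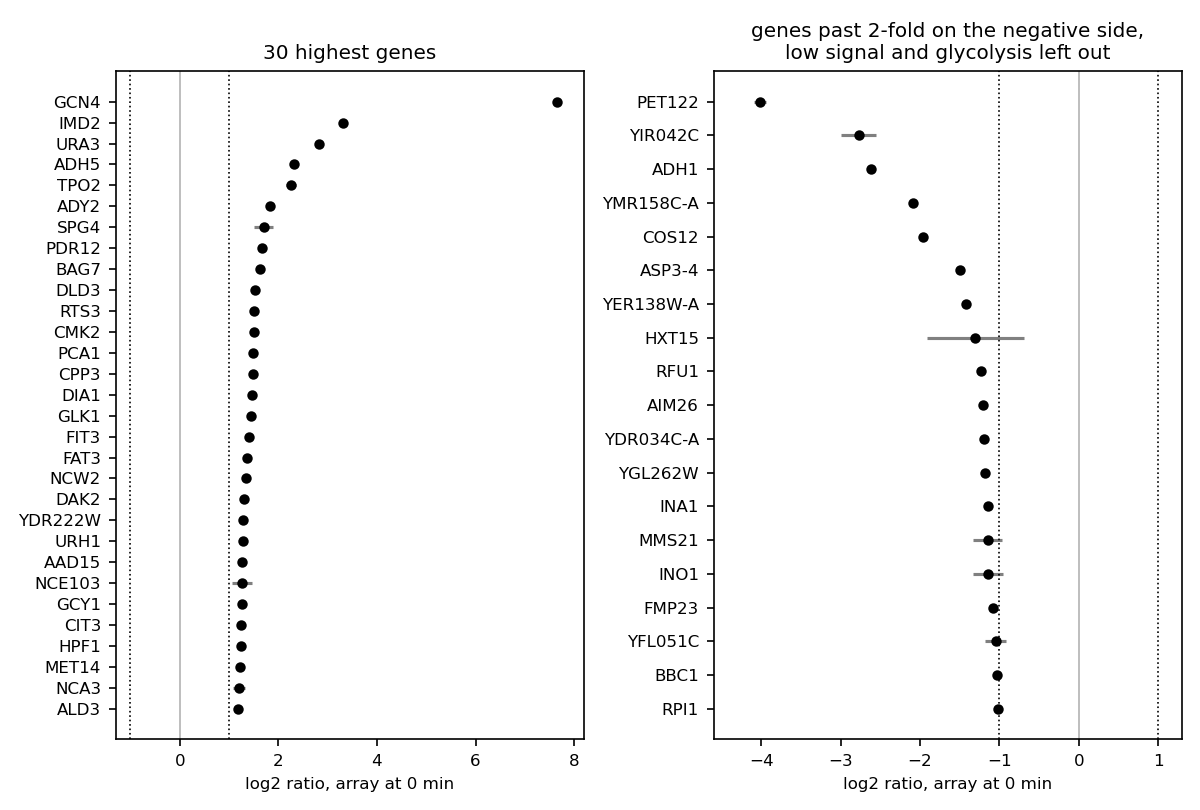
Log2 strain ratio at 0 min of the 30 highest genes (left) and of the 19 genes past 2-fold on the negative side once low-signal and glycolytic genes are left out (right), with a point for the mean over probes, a line spanning the probes and dotted lines at 2-fold. GCN4 lies at 7.66, more than 4 units above the next gene, and PET122 leads the negative side at -4.01.

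The amino acid synthesis enzymes that Gcn4 is known to activate had small positive medians, each below 1.5-fold. Of the branched-chain list 10 of 13 genes were above 0, with a median of 0.41 and LEU1, isopropylmalate isomerase, highest at 0.83. Lysine synthesis had 8 of 9 above 0 and a median of 0.29, arginine and ornithine 10 of 13 and 0.30, and aromatic amino acids 13 of 16 and 0.19. Over all genes 59.2% were above 0. None of these lists held a gene at 2-fold, where 1.09% of all genes were on the positive side. At 1.5-fold, against 5.34% of all genes, were 4 branched-chain and 4 arginine genes and 0 of the lysine and aromatic lists. Histidine synthesis had a median of 0.24 over 7 genes, with HIS4 at 0.66 and HIS3, at low signal, at -1.65. The kinase GCN2 that controls GCN4 translation stood at 0.08, its partner GCN1 at -0.09 and PCL5, the cyclin that promotes Gcn4 breakdown, at 0.67.

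Nucleotide genes shared this pattern of single high members over small shifts. IMD3 and IMD4, paralogs of IMD2 in the same step, stood at 0.74 and 0.59, while GUA1 and GUK1, the next enzymes of GMP synthesis, stood at -0.02 and -0.10. The IMD genes are similar in sequence, so the split between them is uncertain. Beside URA3, the pyrimidine list of 17 genes held URH1, a uridine nucleosidase, at 1.28 and URA8, a CTP synthase, at 1.09 as its other genes past 2-fold, and its median was 0.31. The uridine permease FUI1 had 0.92 and URA2, the first enzyme of the pathway, 0.75, while its activator PPR1 had -0.47 and URA1 -0.44. Purine synthesis lay near all genes, with a median of 0.15 and ADE12 highest at 0.79.

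Genes that respond to weak organic acids were among the most positive of the lists. The list of Haa1, the acid-responsive activator, and of the War1 target PDR12 had a median of 0.43 over 18 genes. It was written with earlier results of these data known, so its shares are a description only. Of the 18 genes 15 were above 0, against 59.2% of all genes. Past 2-fold were 4, against 1.09%, namely TPO2, ADY2, SPG4 and PDR12. The inositol monophosphatase INM1 followed at 0.98 and TPO3, a relative of TPO2, at 0.63. HAA1 and WAR1 themselves had -0.13 and 0.19, and the Haa1 targets YGP1, SPI1 and YRO2 had 0.43, 0.43 and 0.25. Its relatives in the acetate and ammonium family were positive too, with ATO3 at 1.06 and ATO2 at 0.54 beside ADY2.

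Most enzymes that break down fatty acids were positive. Of 14 enzymes and transporters of peroxisomal beta-oxidation 12 were above 0, 9 passed 1.5-fold and 5 passed 2-fold, with a median of 0.78. The same shares of all genes were 59.2%, 5.34% and 1.09%. POX1, the oxidase that starts the cycle, had 1.02, POT1, the thiolase that ends it, 1.10, and SPS19, a dienoyl-CoA reductase, 1.12. Catalase A, encoded by CTA1, had 1.07 and the acyl-CoA synthetase FAA1 1.03. The peroxisome assembly genes stood lower, with a median of 0.22 over 13 PEX genes and 0 past 1.5-fold, and the activators PIP2 and OAF1 had 0.15 and 0.12. Exceptions among the enzymes were TES1, a thioesterase, at -0.06 and ANT1, the peroxisomal ATP carrier, at -0.29. This division of the peroxisome list was made with its values known.

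Carnitine and acetate genes were positive too, while several enzymes of gluconeogenesis and the glyoxylate cycle lay below 0. The carnitine carrier CRC1 had 0.95, the carnitine acetyltransferases YAT2 and CAT2 had 0.88 and 0.82, and the acetyl-CoA synthetase ACS1 0.99. The monocarboxylate permease JEN1, which takes up pyruvate and lactate, had 0.72. On the other side of 0 lay PCK1, phosphoenolpyruvate carboxykinase, at -0.57, the malate synthase MLS1 at -0.56, the fructose-1,6-bisphosphatase FBP1 at -0.42 and the isocitrate lyase ICL1 at -0.24. The median of the combined list, 0.29 over 16 genes, thus covered both directions, and it was -0.17 when genes with 1 probe were left out. Regulators of these genes lay closer to 0, with CAT8 at 0.17, ADR1 at 0.26, SNF1 at 0.43 and SIP4 at 0.65, and the glucose repressor NRG1 was the 1 member of its list past 2-fold, at 1.10.

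Most genes of the TCA cycle lay a little below 0. Of 16 such genes 12 did, against 40.8% of all genes, with a median of -0.07, and the isocitrate dehydrogenase subunit IDH2 was lowest at -0.53. CIT3, a citrate and methylcitrate synthase, had 1.24. The 2 other enzymes of the methylcitrate cycle, which breaks down propionyl-CoA, were ICL2 at 1.13 and PDH1 at 0.92, and this trio was chosen after its values were seen. MAE1, the mitochondrial malic enzyme that makes pyruvate from malate, had 1.17. Targets of the retrograde response, by which mitochondria signal to the nucleus, also split: the peroxisomal citrate synthase CIT2 (1.15), DLD3 and ATO3 passed 2-fold, PYC1, a pyruvate carboxylase, had 0.56, and ACO1, IDH1 and IDH2 had -0.24, -0.07 and -0.53.

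The enzymes between pyruvate, acetaldehyde and acetate differed by isozyme. Beside ADH5 at the top of its list, ADH2, the alcohol dehydrogenase used to consume ethanol, had 1.17, ADH1 had -2.62 and the mitochondrial ADH3 -0.01. The pyruvate decarboxylases PDC1 and PDC5 had -0.33 and -0.65. All 9 genes for aldehyde dehydrogenases and acetyl-CoA supply were above 0, against 59.2% of all genes. They were led by ALD3 at 1.18 and the mitochondrial ALD4 at 1.13, whereas the cytosolic ALD6 had 0.25 and the acetyl-CoA synthetase ACS2 0.24. Among kinases of hexoses GLK1 stood above EMI2 at 0.59, HXK1 at 0.20 and HXK2 at -0.09. Of the minor glycolytic paralogs GPM2 was highest at 0.81 and ERR3, at low signal, lowest at -0.96.

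Isozymes of the respiratory chain differed likewise. Of 38 genes of oxidative phosphorylation 29 were below 0, against 40.8% of all genes, with a median of -0.13 and ATP1, an ATP synthase subunit, lowest at -0.59. The highest were NDE2, an external NADH dehydrogenase, at 0.74, COX5B, the low-oxygen isoform of a cytochrome oxidase subunit, at 0.67, and CYC7, the minor cytochrome c, at 0.60. CYC1, the main cytochrome c, had -0.36.

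**Figure D3:**
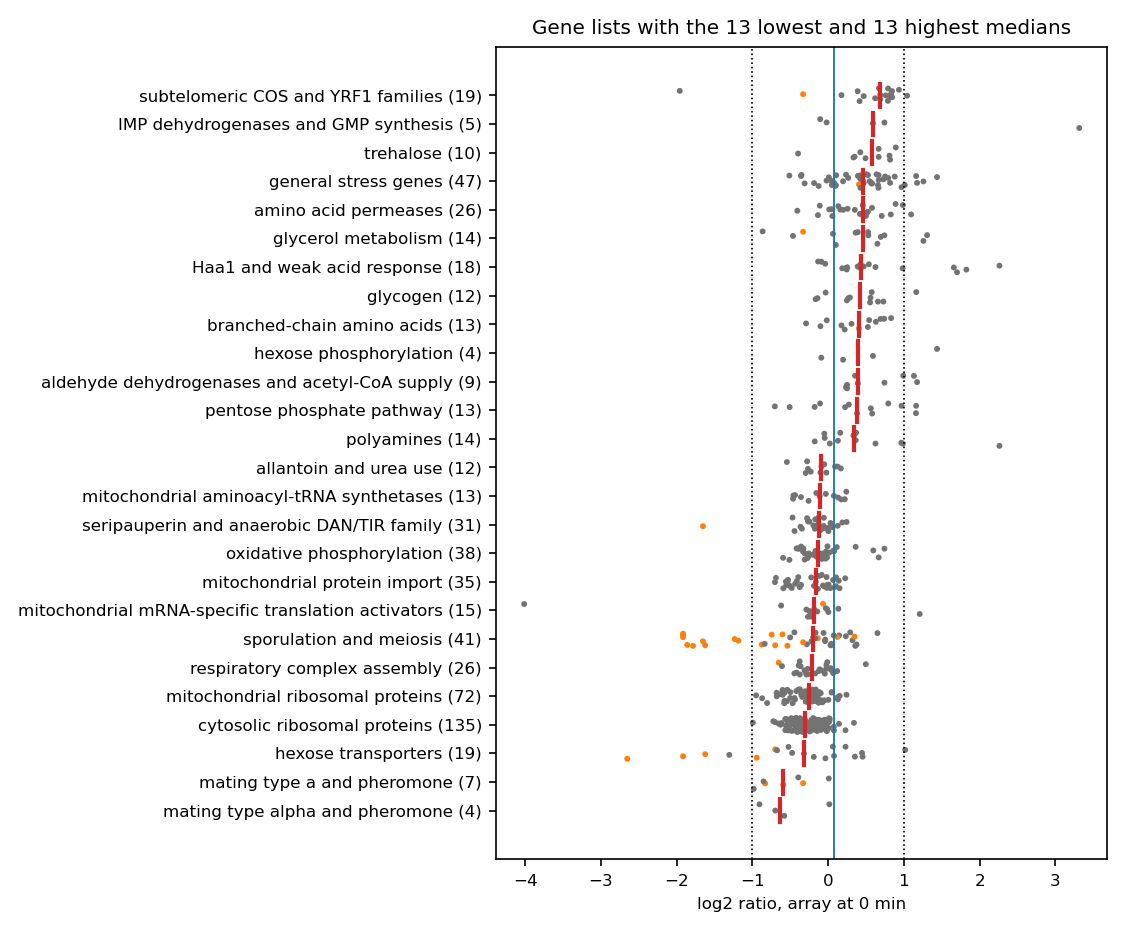
Log2 strain ratio at 0 min of each member (points, orange at low signal) of the 26 lists of 4 or more measured genes, glycolysis left out, with the 13 lowest and 13 highest medians. Red bars are list medians, numbers in brackets count measured genes, the blue line is the median of all genes at 0.07 and dotted lines mark 2-fold.

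Storage carbohydrates and side routes from sugar phosphates had positive medians. Trehalose genes had a median of 0.58 with 9 of 10 above 0 (59.2% of all genes) and 5 past 1.5-fold (5.34% of all genes), among them phosphoglucomutase PGM2 at 0.82, the UDP-glucose pyrophosphorylase UGP1 at 0.81 and the trehalose phosphate phosphatase TPS2 at 0.67. PGM1, the minor phosphoglucomutase, was the exception at -0.40. In glycogen metabolism GIP2, a targeting subunit of the Glc7 phosphatase, had 1.16 and the synthase GSY2 0.73. The pentose phosphate list had a median of 0.38, with TKL2, the minor transketolase, and GND1, the main 6-phosphogluconate dehydrogenase, both at 1.16, whereas TKL1 had 0.56, the first enzyme ZWF1 0.27 and the ribose phosphate isomerase RKI1 -0.51. Glycerol genes had a median of 0.46, with DAK2, a dihydroxyacetone kinase, at 1.31 and GCY1, a glycerol dehydrogenase, at 1.26 against the glycerol phosphatase GPP1 at -0.86.

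Stress genes in the wide sense were not alike. The general stress list, defined by genes under Msn2 and Msn4, had a median of 0.46 over 47 genes with 16 past 1.5-fold, against 5.34% of all genes. Past 2-fold were 5, against 1.09%, namely GLK1, GCY1, ALD3, TKL2 and PHM7. The chaperones of the heat shock factor had a median of 0.02 over 29 genes with 0 past 1.5-fold on either side, and HSP26, a small heat shock protein gene held by both lists, had -0.51. Oxidant defence had a median of 0.04, from the sulfiredoxin SRX1 at -0.90 to CTA1. The proteasome had 0.10 and autophagy 0.15.

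Amino acid permeases were positive in 23 of 26 genes, against 59.2% of all genes, with a median of 0.46. At 1.5-fold were 5 of them, against 5.34% of all genes. MUP1, the high-affinity methionine permease, had 1.10, SAM3, the S-adenosylmethionine permease, 0.99, the branched-chain permease BAP3 0.89 and the dicarboxylic amino acid permease DIP5 0.83. UGA4, a GABA permease, was lowest at -0.41, and the sensor SSY1 and its targets STP1 and STP2 stood at 0.16, 0.01 and 0.04. MET14, the adenylylsulfate kinase of sulfate assimilation, had 1.22, but the sulfur list as a whole had a median of 0.22 and held MET32, a regulator, at -0.93. In the vitamin lists SNZ1 and SNO1, neighbouring genes of vitamin B6 synthesis, had 1.05 and 0.82, their relatives SNZ2 and SNZ3 had -0.55 and -0.62, and BNA5, kynureninase of NAD synthesis, had 0.99. FIT3, a cell wall protein that binds iron carriers, had 1.41, whereas FIT1 and FIT2 had -0.24 and -0.19 and the iron list a median of 0.07.

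The negative side outside glycolysis was short once low-signal genes were set aside. PET122 (YER153C), which activates translation of a mitochondrial mRNA for a cytochrome oxidase subunit, read -4.09 and -3.94, a mean of -4.01 (16.1-fold). Its nearest measured neighbours YER152C and OXA1 stood at 0.22 and -0.04, and its partners at the same mRNA, PET54 and PET494, at -0.23 and -0.01. The unnamed reading frame YIR042C, the last gene measured on its chromosome, had -2.99 and -2.55 on its 2 probes. Neither matched the low-signal rule, but ratios that need larger whole numbers escape it, so YIR042C may also have little signal. The major alcohol dehydrogenase ADH1 had -2.62 and COS12 -1.96. A further 15 genes lay between -1.01 and -2.09, including INO1, the inositol phosphate synthase, at -1.14, MMS21, a SUMO ligase, at -1.15, the Ras pathway gene RPI1 at -1.01 and RFU1, an inhibitor of a deubiquitinating enzyme, at -1.24. COS12, HXT15, INO1, MMS21 and YFL051C each had 1 probe of the small-number pattern beside another that the rule did not match. For 4 of them that other probe read -0.693 (HXT15), -0.958 (INO1), -0.967 (MMS21) and -1.178 (YFL051C). These values can be ratios of somewhat larger whole numbers, which escape the rule. Both probes of these genes may therefore have little signal, and neither is a sound check on the other. Of the 19 genes 9 had more than 1 probe, and in 5 of these each probe was past 2-fold.

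Several lists with negative medians consisted in good part of low-signal genes. In the sporulation and meiosis list 18 of 41 genes were at low signal, all 9 of its genes past 2-fold negative were among them, and the median moved from -0.20 to 0.03 without them. Hexose transporters had a median of -0.32, with 5 of 19 at low signal, and 0.01 without these. HXT14 (-2.65), HXT11 (-1.92) and HXT13 (-1.62) were at low signal. The transporters of known use in glucose growth differed from each other, with HXT2 at 1.02, HXT3 at 0.35, HXT1 at 0.08, HXT4 at -0.32, HXT6 at -0.52 and HXT7 at -0.67, the last pair being near-identical in sequence.

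Most genes specific to either mating type read below 0, although a haploid strain expresses the set of 1 type only. Of 7 genes specific to mating type a 6 were below 0, against 40.8% of all genes, with a median of -0.59. The alpha-factor receptor STE2 had -0.98 and the a-factor gene MFA2 -0.85. At low signal were 3 of the 7, among them ASG7 at -0.33, where a 1:1 ratio of small numbers lies. Of 4 genes specific to mating type alpha 3 were below 0, with a median of -0.64, and the pheromone genes MF(ALPHA)2 and MF(ALPHA)1 had -0.91 and -0.70. MFA2 and MF(ALPHA)2 each had 1 probe of the small-number pattern, at -0.92 and -1.01. Ratios of larger whole numbers escape the rule, so other members may also have little signal. Low-signal genes over the whole array had a median of -0.54, near the medians of both mating type lists. Without its low-signal genes the list of type a had -0.62. How far low signal shaped these medians was not tested. None of these 11 genes was at 2-fold, and the a-factor receptor STE3 and the a-factor exporter STE6 stood at 0.02 and 0.01. The general pheromone response list had a median of -0.08 over 35 genes, from PRM6, at low signal, at -2.15 to HO, the mating type endonuclease, at 0.89. The agglutinin anchor AGA1 had -0.96 and SST2, which desensitises the pathway, -0.82. The other laboratory marker genes were LEU2 at 0.69, ADE2 at 0.32, LYS2 at 0.30, CAN1 at 0.14, MET17 at 0.01 and TRP1 at -0.45.

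Most ribosomal protein genes lay slightly below 0, while their assembly factors did not. The 75 RPL genes of the large subunit had a median of -0.25 and the 55 RPS genes of the small subunit -0.31, with 72 and 48 of them below 0, against 40.8% of all genes below 0. The 5 genes of the stalk had -0.32. Only 6 of 135 passed 1.5-fold on the negative side (background 5.29%), and RPL7B was lowest at -0.99 and RPL15B highest at 0.34. Mitochondrial ribosomal proteins had a similar median, -0.25 over the 72 genes of their list, with 65 below 0. Of the 72, 8 passed 1.5-fold on the negative side, against 5.29% of all genes. The median was -0.27 over 34 MRPL genes and -0.21 over 20 MRPS and RSM genes, and MRPL36 was lowest at -0.95. Many cytosolic ribosomal proteins come from near-identical gene pairs, so those values are not separate measurements. The 114 ribosome assembly factors had 0.05, RNA polymerases I and III 0.06, cytosolic aminoacyl-tRNA synthetases 0.17 and translation factors 0.13. Respiratory complex assembly, with 21 of 26 genes below 0, and mitochondrial protein import, with 26 of 35, had medians of -0.22 and -0.16, led by the copper chaperone COX17 at -0.61 and the import receptor TOM20 at -0.70.

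Most other machinery stayed near the median of all genes. Chromatin factors (0.17), DNA repair (0.17), the nuclear pore (0.16), mRNA decay (0.13), splicing (0.11), sphingolipid synthesis (0.14), vesicle coats (0.05) and the cytoskeleton (0.06) together held 0 genes past 2-fold. Over all genes 1.09% were past 2-fold positive and 2.25% negative. Replication genes of G1/S had 0.28, with 31 of 39 above 0, against 59.2% of all genes, and the G2/M list had 0.14.

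Repeated genes of the chromosome ends gave the highest median of any list. The 19 COS and YRF1 genes had a median of 0.69, with 17 above 0 and 13 past 1.5-fold, against 59.2% and 5.34% of all genes. All 8 YRF1 genes, which encode helicases of the Y' telomeric repeat, lay between 0.69 and 0.94. The 11 COS genes, which encode membrane proteins, spread from COS12 at -1.96 to COS8 at 1.04, with COS3 at 0.76 and COS2 at 0.69. Members of the YRF1 family are near-identical in sequence, so their values are not separate measurements. COS genes are related too, and how far their probes overlap was not tested. The seripauperins, another family of the chromosome ends, had a median of -0.12 over 24 PAU genes and 0 past 1.5-fold. The other 109 measured genes within the 5 outermost positions of each end had a median of 0.00 but wide tails. Of these 11 were at least 2-fold negative, against 2.25% of all genes. All of the 11 were at low signal by the rule except HXT15, YIR042C and YGL262W, which may also have little signal. Of the 109 genes 20 were at low signal. At 1.5-fold 12 were positive and 20 negative, against 5.34% and 5.29% of all genes. Apart from IMD2, AAD15 and CSS1, the positive ones were unnamed reading frames, from YBL113C at 0.63 to YHR219W at 0.85. Those values lie close to the YRF1 range. Whether their probes overlap the YRF1 repeats was not tested, so they may not be separate from that family.

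**Figure D4:**
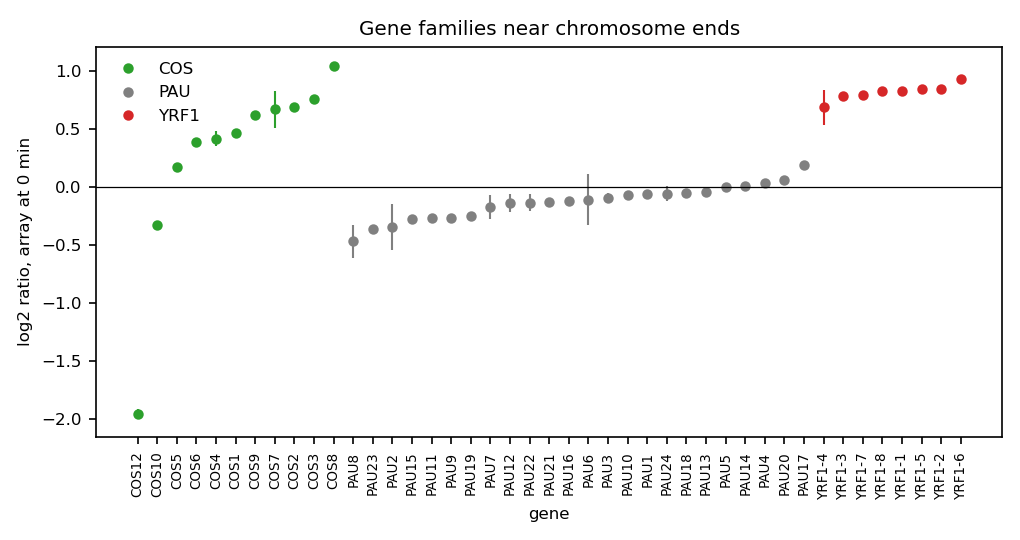
Log2 strain ratio at 0 min of each COS (green), PAU (grey) and YRF1 (red) gene, with a vertical line spanning its probes. The 8 YRF1 genes lie together between 0.69 and 0.94, the PAU genes lie between -0.47 and 0.19, and COS genes spread from -1.96 to 1.04.

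No chromosome or long stretch of chromosome stood apart. Medians by chromosome ran from -0.11 on chromosome I, over 88 genes, to 0.12 on chromosome XIII, over 437 genes. Over 5351 windows of 15 neighbouring measured genes the medians ran from -0.33 to 0.38, so none reached 1.5-fold. The lowest windows were on chromosome XII, starting at the asparaginase gene ASP3-1, and on chromosome XIV, ending at the low-signal gene PDR18. Their medians of -0.33 lie where a 1:1 ratio of low signals lies. The highest windows were on chromosomes III and XV.

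After glucose most genes of the positive side were positive again, while others lost or turned their sign. Of the 61 genes, 43 passed 2-fold on the positive side at 20 min and 46 at 60 min, where 17.1% and 16.2% of all genes were. At both times 39 of the 61 were, against 10.3% of all genes. GCN4 (7.83 and 7.40), URA3 (2.07 and 2.39), TPO2 (1.98 and 2.09) and IMD2 (3.26 and 2.53) differed by less than 1 unit between arrays, whereas DLD3 stood at 5.37 and 5.63 and NCE103, carbonic anhydrase, went from 1.27 to 4.34 and 3.89. Below 2-fold positive at both times were 11 genes, among them HXT2 (-2.82 and -4.88), ADY2 (-0.67 and -1.09), ATO3 (0.95 and -0.07), MAE1 (0.75 and -0.21), CTA1 (-0.01 and -0.38) and POX1 (0.65 and 0.48). Fatty acid genes thus went separate ways, since POT1 had 3.59 and 0.29 and FAA1 3.54 and 2.13. Of the 19 negative genes outside glycolysis 6 passed 2-fold on their side at both times, against 7.35% of all genes, namely PET122 (-2.004 and -1.90), YIR042C (-2.23 and -2.27), COS12, YGL262W, INA1 and RPI1. Of the 97 low-signal genes on the negative side, 34 also passed 2-fold negative at both times. The 3 arrays share their probes and their dye orientation, whose part in these counts was not tested.

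**Figure D5:**
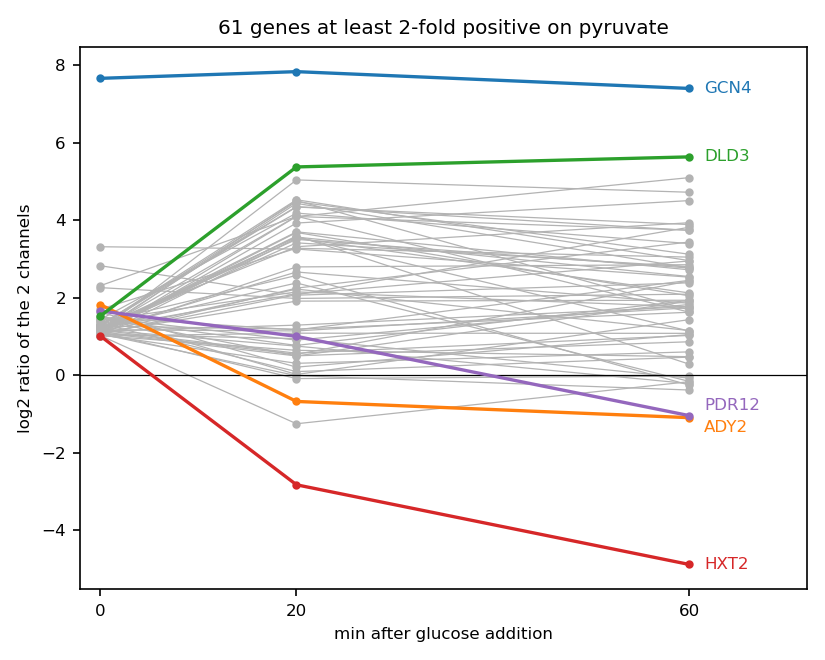
Log2 strain ratio at 0, 20 and 60 min after glucose of the 61 genes at least 2-fold positive at 0 min, 1 line per gene from 1 array per time. GCN4 stays between 7.40 and 7.83, DLD3 climbs to 5.63, and HXT2, ADY2 and PDR12 end below -1.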

How the data were processed

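Per the labels, Agilent arrays with Cy5 in channel 1 and Cy3 in channel 2 were hybridised with RNA labelled by a linear amplification kit for low input. The authors deposited 1 log2 ratio per probe and array (10807 probes). Base 2 was read from the values. Scanner software, background correction, normalisation, filters and ratio direction are not given in the sources. The small number of arrays limits precision.

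The platform annotation gave 9202 probes 1 symbol, 0 several and 1605 none, and 9194 matched a gene ID of RefSeq R64. Probes of a gene were averaged (2013 genes with 1 probe, 3571 with 2, 12 with 3 or 4). Gene order along chromosomes came from RefSeq R64, with no coordinates used. With 1 array there was no test, so counts past a fixed fold and list medians are given beside those of all genes. A low-signal gene had every probe missing or, after subtracting the array's offset of -0.33, no farther than 0.001 from the log2 of a quotient of whole numbers up to 8. A coincidental match is possible, and ratios beyond 8-fold cannot match. Quotients that need a whole number above 8 also escape the rule, so genes outside it can still have little signal.

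The members and the 92 gene lists (91 with measured genes, the list of small RNAs having 0) were chosen with earlier results of these data known. Named genes were GCR1, the 30 highest and 30 lowest genes outside glycolysis, each list's members past 2-fold and its extremes, neighbours, and marker and mating genes. All further genes, and the sub-groups within lists, were picked with their values in view. Alternatives were other thresholds, centring, other probe summaries, genes with 2 or more probes, and leaving out low signal. Leaving out genes with any low-signal probe was added after seeing the data. A planned motif search was not done, as no promoter sequence was used here. Steps were tested on simulated data. Python 3.11.15, pandas 2.3.3, numpy 2.4.6 and matplotlib 3.10.9 were used.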

Additional observations from a re-analysis of the deposited data

Results flagged for a closer look

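A handful of genes not called low-signal at 0 min stood at least 2-fold on opposite sides at 0 min and after glucose. Each rests on 1 array per time, so the difference was not tested. HXT2, a glucose transporter, stood at 1.02 before glucose and at -2.82 and -4.88 on the arrays of 20 and 60 min. ADY2 had 1.83 at 0 min and -1.09 at 60 min, and PDR12 had 1.66 and -1.04. YNR014W, an uncharacterised gene, had 1.03 at 0 min and -1.25 at 20 min. In the other direction, ENO1 had -3.86 at 0 min and 1.12 at 20 min, TDH2 had -3.45 at 0 min and 1.24 at 60 min, and the small reading frame YER138W-A had -1.42 at 0 min and 1.76 at 60 min. ENO1 and TDH2 have near-identical relatives.

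Of the probes without a gene symbol, which no comparison used, 1488 had a value at 0 min. Among them 759 passed 2-fold on the negative side and 7 on the positive side. What these probes measure was not analysed here.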

How the results depend on the processing

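The positive count of 61 became 37 with genes of 2 or more probes only, 299 at 1.5-fold and 9 at 3-fold. The negative count of 126 became 76, 296 and 64 under the same choices, 29 without low-signal genes and 24 without genes having any low-signal probe, a choice made after seeing the data. Centring, the median over probes and the probe nearest to 0 kept both counts within 1.5 times, at 49 to 61 positive and 106 to 146 negative genes. The median of the IMP dehydrogenase and GMP list, 0.59, was -0.0190 with genes of 2 or more probes, which leave out IMD2 and IMD4. Of 91 lists 69 kept the sign of their median under every setting run and 22 did not, among them hexose transporters (-0.46 to 0.07), gluconeogenesis and the glyoxylate cycle (-0.17 to 0.32), and sporulation (-0.46 to 0.03). The other lists of changing sign include heat shock chaperones, oxidant defence, ribosome assembly, pheromone response, iron uptake, vesicle coats, the cytoskeleton and RNA polymerases I and III. Of 339 genes followed, 0 of those past 2-fold changed sign under centring, the probe nearest to 0 or the omission of low-signal genes. No paired analysis was possible because each time point has 1 array. No replicate could be left out.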
